A study of Mus musculus with 19 samples.

Results

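Chromosome 2 (Chr2) was represented by 16650 probes, counted as all non-control probes whose deposited position on the mouse build NCBI37 lies on that chromosome, out of 221455 autosomal probes. A boundary at position 154650000 divided them into a distal part of 2530 probes, which covers the last 27.1 Mb of the chromosome, and a proximal part of 14120 probes. The boundary was chosen by the aCGH ratios of these tumors and livers along the chromosome. The contrast between the parts is therefore given below as a description of each sample. The mean levels of both parts and their contrast were tested only between livers, by p53 genotype, and not in tumors against livers. Single bins of both parts were tested in tumors against livers and between the tumor types. Those tests use the same ratios, so their counts are printed by part and nothing is read from them. Array comparative genomic hybridization (aCGH) hybridizes sample DNA and control DNA, each with its own dye, to the same probes, and the log2 ratio of both signals (the aCGH ratio) rises with the DNA copy number of the sample. The arrays held genomic DNA of 4 hepatocellular adenomas (HCA, a benign liver tumor), 6 hepatocellular carcinomas (HCC, a malignant one) and the unaffected livers of the same 9 mice, each against liver DNA of a C57BL/6.129 control of the opposite sex. All 9 mice were Mad2(f/f) with AlbuminCre on a C57BL/6.129 background, that is, both copies of Mad2l1 could be recombined by Cre recombinase from the albumin promoter, which is active in hepatocytes and not in the blood vessel, immune and other cells that a piece of liver also contains. The HCAs came from females, of which mice 2430 and 6199 were p53(f/f), aged 16.9 and 12 months, and mice 5884 and 5901 were p53(f/+), aged 14.2 and 12 months. The HCCs came from mice labeled p53ser246+ (Trp53 R246S), namely 2 tumors of female 6240 at 16.2 months and 1 tumor each of males 6487 at 12.8 months, 6565 at 14.7 months and 6642 at 12.3 months and female 6602 at 13.2 months. No genotype was shared by the HCAs and the HCCs, so the effects of tumor type and of Trp53 cannot be told apart.

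Mad2l1 encodes a core protein of the spindle assembly checkpoint, which delays the separation of chromosomes in mitosis until every chromosome is attached to the spindle. Cells without the checkpoint can pass on whole chromosomes unevenly, whereas a gain of only one end of a chromosome also requires a break in the DNA. Mouse chromosomes have their centromere at one end, so the distal part is the end opposite the centromere. The distal part has its human counterpart on chromosome 20. The stretch of mouse Chr2 that is conserved with human chromosome 20 is known to start before the boundary, and it also includes genes such as Pcna, a sliding clamp of DNA replication, and Jag1, a Notch ligand. In the RefSeq annotation of GRCm38.p6, a later build from which only names and gene order were taken, both come before Foxa2, Id1, Bcl2l1, Tpx2, Dnmt3b, E2f1, Src, Mybl2, Hnf4a, Ncoa3, Ptpn1, Zfp217, Aurka and Gnas, in that order toward the distal end. This row of genes includes Hnf4a, a transcription factor of hepatocyte identity, Aurka, a mitotic kinase of the spindle poles, Tpx2, which activates that kinase, and Src, a tyrosine kinase of growth signaling. The array files pair no probe with a gene, and no annotation of NCBI37 was at hand, so values are given for stretches of the chromosome and not for single genes.

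The 19 arrays differed in signal and noise on Chr2. The median intensity was 1.84 to 5.12 times the local background in Cy5 and 3.06 to 4.86 times in Cy3. The software marked at least 98.7% of the Chr2 spots of each array as well above background in Cy5 and Cy3 alike, and the difference between neighbouring probes corresponded to a probe noise of 0.18 to 0.42 (SD on the log2 scale). The X chromosome served as a ruler, because sample and control differed in sex. Its mean ratio was 0.89 to 1.04 in the 6 livers of females and −1.02 to −0.90 in the 3 livers of males, where the ratio of 2 copies to 1 would be 1. In the tumors it was −1.06 to −1.04 in males and 0.73 to 1.07 in 6 of the 7 of females. On the same scale a ratio of 3 copies to 2 would be 0.58 and one of 5 copies to 4 would be 0.32. The values come from bulk tissue, in which a change in a few of the cells and a smaller change in all of them cannot be told apart. The arrays of 2 samples stood apart, both of mouse 6240. Tumor 2 had an X ratio of 0.32, against 1.04 in its liver. In the liver of mouse 6240, 8 of the 19 autosomes had a mean ratio of at least 0.1 in size, against 0 to 3 in the other 8 livers, and that liver also had the highest probe noise, 0.42. Over the 1090 autosomal probes that varied most among the livers, each of the 10 tumors correlated more with the liver of its own mouse than with any other liver.

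Unaffected livers showed a nearly flat Chr2. The proximal ratio of the 9 livers had a lowest value of −0.0098, a median of 0.022 and a highest of 0.14, and the distal ratio a lowest value of 0.011, a median of 0.059 and a highest of 0.13. The distal part lay above the proximal part in 8 of 9 livers, by a mean of 0.027 ± 0.024 (SD, n = 9) over all of them, so a small positive step was present without a tumor. The liver of mouse 6240 was the exception, with 0.14 proximally and 0.13 distally. Without it the livers had a proximal ratio of 0.016 ± 0.021 and a distal ratio of 0.049 ± 0.024 (SD, n = 8).

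All 4 HCAs had a higher Chr2 ratio than the liver of their own mouse, in the proximal and in the distal part. In the HCA of mouse 2430 the ratio was 0.13 in the proximal and 0.11 in the distal part. In the HCA of mouse 5884 the values were 0.026 and 0.092. The HCAs of mice 5901 and 6199 had 0.11 and 0.16 proximally and 0.16 and 0.23 distally. The mean was 0.11 ± 0.059 (SD, n = 4) proximally and 0.15 ± 0.063 distally, higher than the mean of the livers by 0.078 and 0.093, or by 0.092 and 0.10 without the liver of mouse 6240. Every HCA was above the liver of its own mouse in both parts, by 0.036 to 0.16 proximally and 0.081 to 0.17 distally. The groups overlapped, since only the HCA of mouse 6199 exceeded all 9 livers in the proximal part and only those of mice 5901 and 6199 in the distal part. The distal part exceeded the proximal part by 0.042 ± 0.043 (SD, n = 4), a step that differed from that of the own liver by −0.034 to 0.045. Relative to the own liver, no HCA was divided into more than 1 segment along Chr2 by the search for steps described below.

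HCCs differed from one another more in the distal part, where the SD over the 6 tumors was 0.18, than in the proximal part, where it was 0.036. The proximal ratio was −0.094 in tumor 4 and −0.032 in tumor 2 of mouse 6240, −0.013 in mouse 6487, −0.014 in mouse 6565, 0.013 in mouse 6602 and −0.028 in mouse 6642. All 6 were below the liver of their own mouse, with differences of −0.24 to −0.011, and 5 of the 6 were below every liver. The smallest difference was that of mouse 6565. In the distal part the HCCs of mice 6487 and 6602 reached 0.30 and 0.33, above all livers and all HCAs. The other 4 HCCs had distal ratios of −0.051, −0.0043, 0.038 and −0.063, for tumors 4 and 2 of mouse 6240 and the tumors of mice 6565 and 6642. The step from the proximal to the distal part was accordingly 0.32 in each of the 2 tumors with a high distal part and −0.035 to 0.052 in the other 4.

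**Figure D1:**
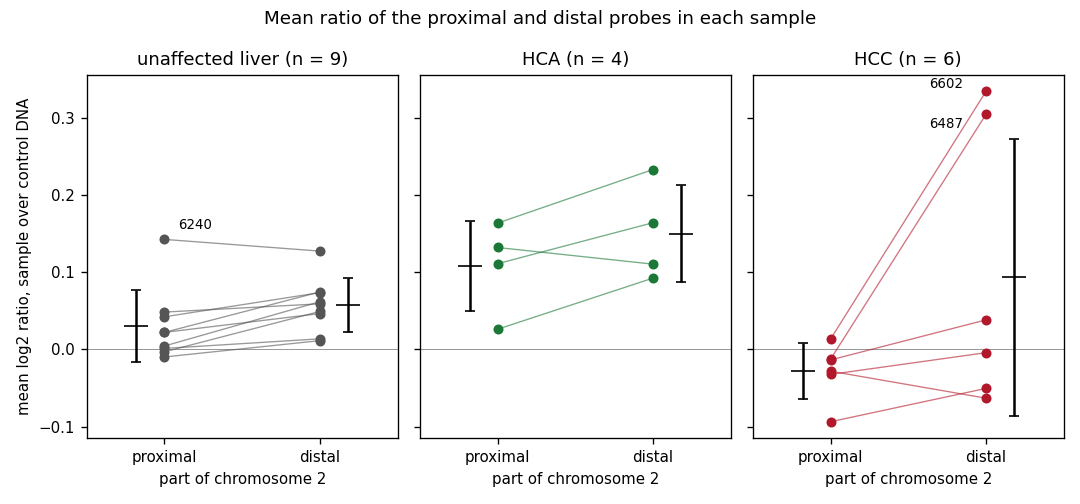
Mean log2 ratio of the proximal and distal probes of Chr2 in each sample, for unaffected liver (n = 9), HCA (n = 4) and HCC (n = 6). Points are samples, lines join the 2 parts of a sample, and black bars are the group mean ± SD. The HCCs of mice 6487 and 6602 are at 0.30 and 0.33 distally, while the HCAs have means of 0.11 and 0.15 in the 2 parts and the liver of mouse 6240 lies above the other livers.

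As a group, the HCCs had a distal ratio of 0.093 ± 0.18 (SD, n = 6), and the spread came from the same 2 tumors. Without them the mean was −0.020 ± 0.046 (SD, n = 4). The mean step of the HCCs exceeded that of the livers by 0.094. It did so by 0.054 when the HCC of mouse 6602 was left out, by 0.11 without tumor 2 of mouse 6240 and by 0.088 without the liver of that mouse. When the HCCs of mice 6487 and 6602 were both left out, the mean step was 0.022 ± 0.039 (SD, n = 4), against 0.027 in the livers. The arrays had been scanned on 3 days, and the HCC of mouse 6487 was the only HCC of the second. Within the second day the HCC step exceeded that of the livers by 0.28, and within the third day, which held the other 5 HCCs and 4 livers, it did so by 0.062. The distal ratio of the HCCs differed from that of the livers by 0.25 within the second day and by −0.026 within the third. For HCAs, the difference in step was −0.0063 within the first day and 0.020 within the second.

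**Figure D2:**
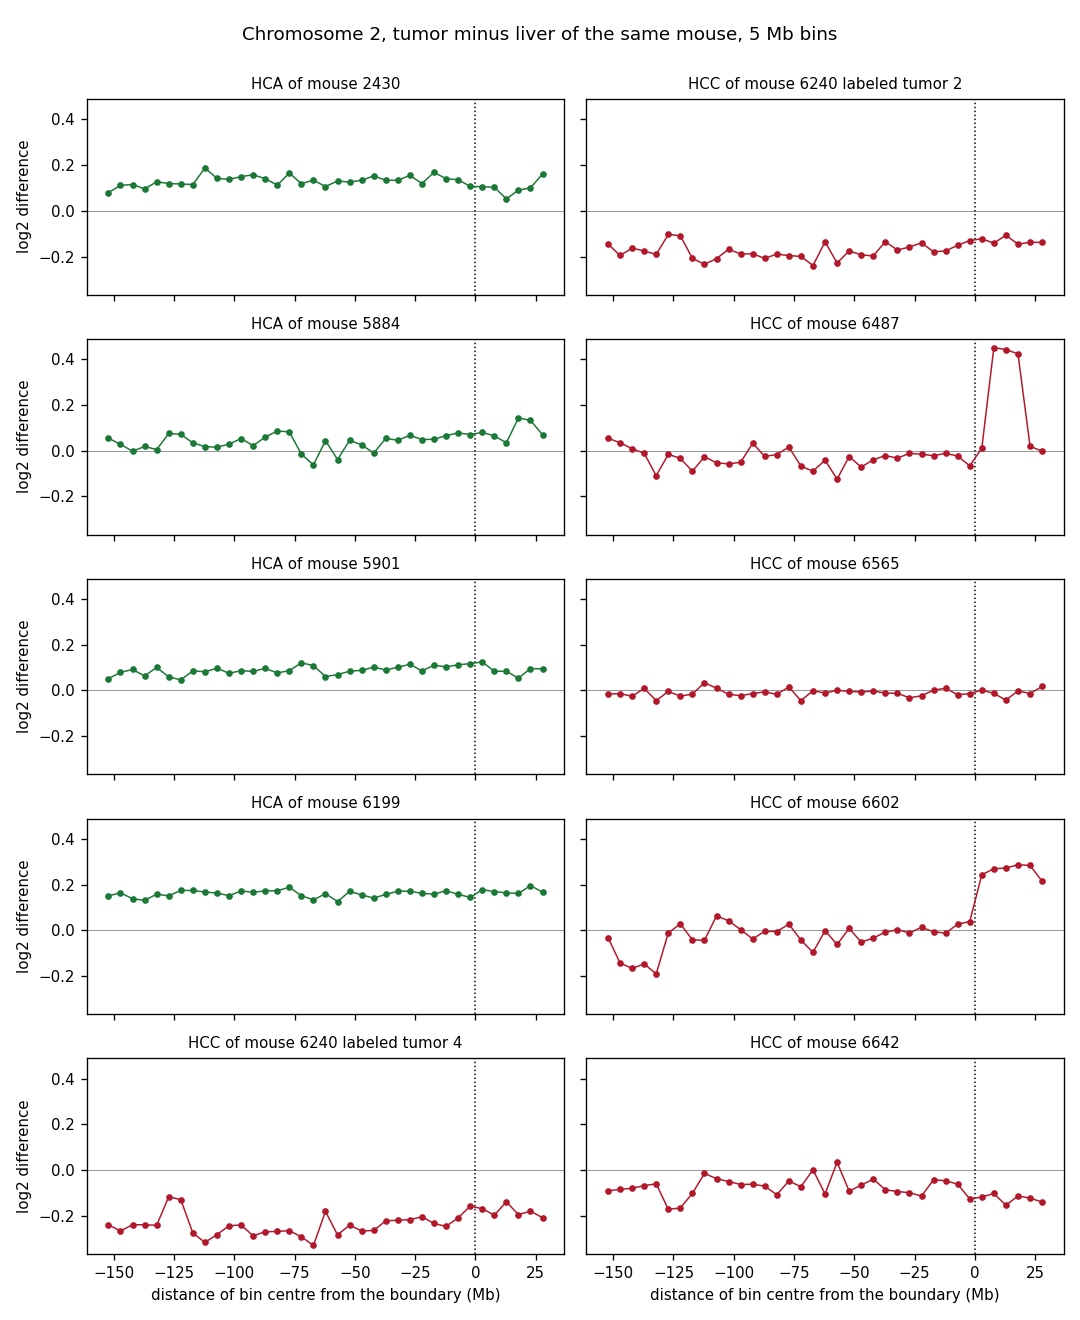
Mean log2 ratio of each tumor minus that of the liver of the same mouse in 5 Mb bins of Chr2, against the distance of the bin centre from the boundary in Mb (dotted line at 0). HCAs are green and HCCs red. The HCC of mouse 6487 rises to 0.45 in 3 distal bins and returns to the liver level, that of mouse 6602 stays raised to the end of the chromosome, and the HCAs and the other HCCs run level across the boundary.

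The 2 high distal parts had different shapes. In bins of 5 Mb, the HCC of mouse 6487 was at 0.011 above its liver from 155 to 160 Mb. It was at 0.45, 0.44 and 0.42 in the 3 bins from 160 to 175 Mb, and at 0.019 and −0.0030 in the 2 bins beyond. The gain was thus interstitial, with ratios at the liver level on both sides. In the HCC of mouse 6602 all 6 distal bins were raised above its own liver, by 0.22 to 0.29, so that the gain reached the last probe of the chromosome. The bin that holds the boundary, from 150 to 155 Mb, was at −0.067 and 0.038 against the own liver in these 2 tumors, and the neighbouring bin from 145 to 150 Mb at −0.024 and 0.028. Counted with a cut-off of 0.2 above the own liver, 3 of the 37 Chr2 bins passed in the HCC of mouse 6487, where 4.58% of the 502 autosomal bins passed, and 6 of 37 passed in the HCC of mouse 6602, where 16.7% of all bins passed. All of these Chr2 bins were distal. In the other 8 tumors 0 Chr2 bins passed. Beside these, the share of all bins that passed was 19.1%, 9.96%, 14.5% and 4.38% in the HCAs of mice 2430, 5884, 5901 and 6199, 10.2% and 9.76% in tumors 4 and 2 of mouse 6240, and 2.99% and 15.7% in the HCCs of mice 6565 and 6642.

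For a finer view, the chromosome was cut into 832 windows of 20 neighbouring probes, with a median size of 163 kb, and the difference between tumor and own liver was divided into segments that differed by at least 0.1. This search was added after the bins had been seen. In the HCC of mouse 6487 the raised segment ran from chr2:159141984-174983506, a length of 15.8 Mb, with a mean of 0.44 ± 0.079 (SD over 75 windows) above its liver. The 732 windows below it averaged −0.034 and the 25 windows above it 0.012. All 75 windows of the segment lay between 0.26 and 0.65 and were higher than every window below it. From the last window below the segment to the first window inside, the difference went from 0.079 to 0.40. The search placed the ends of the segment by these same differences. The separation and the change at the start therefore partly follow from that choice.

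In the HCC of mouse 6602 the raised segment ran from chr2:155292800-181723576, a length of 26.4 Mb, with a mean of 0.27 ± 0.087 (SD over 122 windows) above its liver. Its windows ranged from 0.042 to 0.50 and overlapped the windows below it, so the start is less sharply placed than in mouse 6487. In the tumor's own ratios, with no liver subtracted, the segment began at the window that starts at 154650032, which is the first distal probe. The boundary was chosen by these ratios, so this match is not independent of that choice. The windows on both sides of the boundary show what the rule separated. In this tumor the last window below it, which ends at 154637888, had a ratio of 0.11, and so did the window before that. The first window above it had 0.37. The values that follow are in the order along the chromosome. Its liver had −0.050, 0.029 and 0.16 in the same 3 windows. In the HCC of mouse 6487 they had −0.0064, −0.075 and 0.15, so this tumor had no gain at the boundary. Its distal mean of 0.30 averages over gained and ungained probes. A rise from the last window below the boundary to the first above it was shared by samples with no gain there. In the liver of mouse 6199 it went from −0.016 to 0.28. Only the HCA and the liver of mouse 2430 fell, to −0.22 and −0.30.

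**Figure D3:**
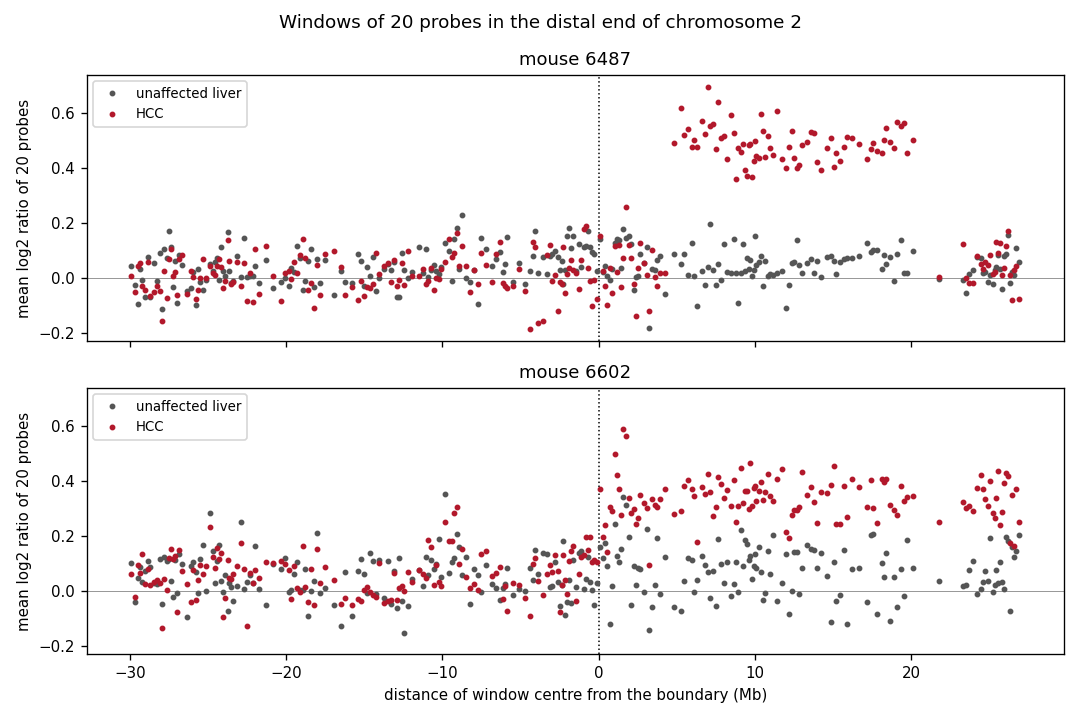
Mean log2 ratio of windows of 20 probes in the HCC (red) and the unaffected liver (grey) of mice 6487 and 6602, against the distance of the window centre from the boundary in Mb (dotted line at 0). The HCC of mouse 6487 is raised over 15.8 Mb and returns to the level of its liver, and that of mouse 6602 is raised from near the boundary to the end of the chromosome.

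The stretch raised in both tumors was the whole of the interstitial gain of mouse 6487, which held 1500 probes. Here the ratio was 0.49 in the HCC of mouse 6487 and 0.34 in that of mouse 6602, against 0.048 and 0.065 in their own livers. The other 4 HCCs had −0.069 to 0.030, the HCAs 0.098 to 0.22 and the livers 0.019 to 0.12. The difference from the own liver was 0.44 in mouse 6487 and 0.28 in mouse 6602, or 48.9% and 28.2% of the size of the X ratio in the liver of the same mouse. Between the starts of the 2 gains the HCC of mouse 6487 was at −0.021 and that of mouse 6602 at 0.25 against the own liver, and in the 6.73 Mb beyond the interstitial gain the values were 0.0091 and 0.25. By the rule for windows, the 5 windows farthest from the Chr2 median of any tumor against its own liver were all in the HCC of mouse 6487 and inside this stretch. The highest, chr2:161570603-161719875, had a ratio of 0.69 in the tumor and 0.040 in the liver.

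The raised stretch was present in the channel of the tumor DNA and not in that of the control DNA. The stretch was picked by the ratios of these 2 tumors, so that their ratios stand out here was fixed in advance. Only the split of the difference between the channels is described. The processed signal of the shared stretch was set against that of the part of Chr2 below both gains, for each dye, and given relative to the mean of the livers. In Cy5, the sample channel, it was higher by 0.48 in the HCC of mouse 6487 and by 0.31 in that of mouse 6602, while the other 17 arrays ranged from −0.052 to 0.031. In Cy3, the control channel, these 2 arrays had 0.0022 and 0.0069, within the range of −0.014 to 0.021 of the other 17.

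**Figure D4:**
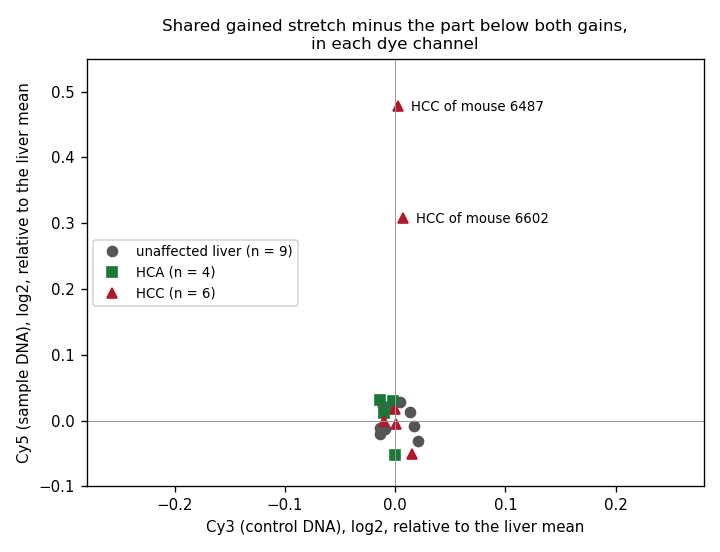
Log2 signal of the shared gained stretch minus that of the part of Chr2 below both gains, in the Cy3 (control DNA, x axis) and Cy5 (sample DNA, y axis) channels, relative to the mean of the livers, for each of the 19 arrays. The HCCs of mice 6487 and 6602 stand at 0.48 and 0.31 in Cy5, and all 19 arrays are within 0.021 of 0 in Cy3.

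The last 27.1 Mb of every autosome was also set against the rest of that autosome, each as tumor minus own liver. That length was set by Chr2 in these same ratios, so the steps are a description and the place of Chr2 among the autosomes is not read from them. In the HCC of mouse 6487 the step was 0.29 on Chr2, and the largest in size on another autosome was 0.044, on Chr12. In the HCC of mouse 6602 it was also 0.29 on Chr2, and it was 0.29 on Chr5. In the other 8 tumors the step on Chr2 was −0.046 to 0.058. Of these 8, only the HCA of mouse 5884 had an autosome past 0.2 in size, Chr8 with −0.27.

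The proximal part held changes of its own in the HCC of mouse 6602. From 5 to 25 Mb its mean ratio was −0.13, against 0.031 in its liver, and the segments of the difference from the liver placed a lower stretch, with a mean of −0.14 ± 0.094 (SD over 109 windows), over the first 26.9 Mb covered by probes. The same 20 Mb were at −0.12 and −0.057 in tumors 4 and 2 of mouse 6240, 0.0072 in the HCC of mouse 6487, −0.035 in that of mouse 6565 and −0.030 in that of mouse 6642, but tumor 4 of mouse 6240 was low along the whole proximal part, with a mean of −0.094, whereas the HCC of mouse 6602 had a proximal mean of 0.013. Against the own liver the stretch was at −0.16 in mouse 6602 and at −0.24 and −0.18 in tumors 4 and 2 of mouse 6240, whose liver was high. In the ratios of the tumor alone, a short stretch at chr2:49327287-52004806 (200 probes) was raised to 0.29. Its liver had 0.093 there, and the other 18 samples ranged from −0.047 to 0.23 with a median of 0.046. Against the own liver the stretch was at 0.20 in this tumor, and in the other tumors at −0.27 to 0.19, the highest in the HCA of mouse 6199. In the difference from the liver the search placed no segment there. The stretch held 10 windows, the smallest number that the search allowed. Relative to the Chr2 mean of the same sample, the stretch was at 0.23 in this tumor and at most at 0.092 in the other 18. Livers also differed from each other in single windows. At chr2:28360007-28465053 the liver of mouse 2430 was 0.48 above its own Chr2 median and the liver of mouse 6240 was −0.17 from its own, with a median of 0.020 over the 9 livers. The mice had a mixed C57BL/6.129 background, and the part of strain differences in such windows was not tested.

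Mouse 6240 gave the only 2 HCCs of a single animal, and its liver and tumor 2 were the samples that stood apart. The mean ratio of the whole of Chr2 was 0.14 in the liver, −0.087 in tumor 4 and −0.028 in tumor 2. Against their own liver, the tumors were at −0.23 and −0.17, and 28 and 6 of the 37 Chr2 bins were at least 0.2 below it, beside 22.9% and 8.57% of all autosomal bins. Against the mean of the other 8 livers, which was 0.021 ± 0.021 (SD, n = 8), both tumors were also lower. In the 2 bins from 25 to 35 Mb all 3 samples came closer together, with 0.075 in the liver, −0.047 in tumor 4 and −0.032 in tumor 2. The step between the parts was 0.043 and 0.028 in the tumors and −0.015 in the liver, so neither tumor had a distal gain.

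**Figure D5:**
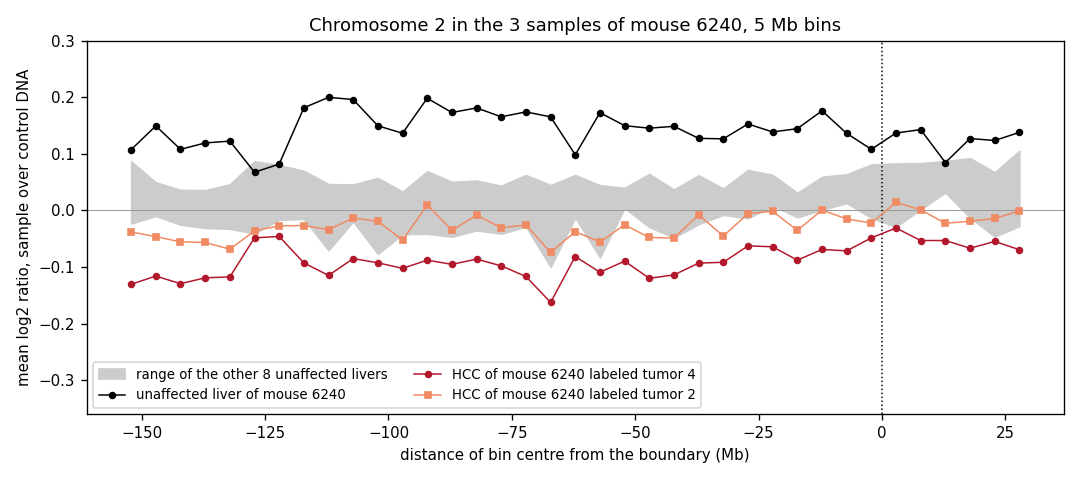
Mean log2 ratio in 5 Mb bins of Chr2 in the unaffected liver and the 2 HCCs of mouse 6240, against the distance of the bin centre from the boundary in Mb (dotted line at 0). The grey band spans the other 8 unaffected livers. The liver of mouse 6240 is above this band in 35 of 37 bins, tumor 4 is below it in 37 and tumor 2 in 21.

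Group means of the bins were compared with limma, which was fitted on all 502 autosomal bins with the 3 groups in one model, and p was adjusted over all bins by the Benjamini-Hochberg method with a threshold of 0.05. These comparisons use the ratios by which the boundary was chosen, so the counts are printed beside those of all bins and nothing is read from them. For HCA minus liver, 12 of the 37 Chr2 bins were called higher, beside 18.7% of all bins, and 0 lower, beside 27.3% (17 bins had an unadjusted p under 0.05). Of the 12 bins, 11 were proximal and 1 held the boundary. The median difference over the Chr2 bins was 0.084, and over all bins 0.023. With the mouse as a replicate block 0 Chr2 bins were called by limma, with 10 at an unadjusted p under 0.05. The count also turned on single samples. It was 0, 1, 2 and 21 without the HCA of mouse 6199, 2430, 5901 and 5884, in that order, 24 without the liver of mouse 6240, and 1 to 6 without any 1 of the other 8 livers.

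The 3 highest Chr2 bins in HCA were 175 to 180 Mb, 145 to 150 Mb and 75 to 80 Mb, with differences from liver of 0.11, 0.10 and 0.10, and the 3 lowest were 85 to 90 Mb, 95 to 100 Mb and 15 to 20 Mb, with 0.034, 0.045 and 0.055. The lowest 2 bins were low in the livers too. There, 7 of 9 livers and 9 of 10 tumors were below their own Chr2 mean.

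For HCC minus liver, 0 Chr2 bins were called higher by limma, beside 4.58% of all bins, and 1 was called lower, beside 20.1% (7 had an unadjusted p under 0.05). After both HCCs of mouse 6240 were averaged, 1 was called lower by limma, and only 1 had an unadjusted p under 0.05. The 3 lowest bins were 20 to 25 Mb, which was the called one, with a difference of −0.098, 0 to 5 Mb with −0.077 and 10 to 15 Mb with −0.075. The 3 highest bins were the 3 of the shared stretch, 160 to 165 Mb with 0.070, 170 to 175 Mb with 0.066 and 165 to 170 Mb with 0.052. Their SE was up to 0.066. With the mouse as a replicate block 0 bins were called by limma, with 4 at an unadjusted p under 0.05, and without tumor 4 of mouse 6240 or without the HCC of mouse 6602 the count was 0 as well, while it was 5 without the HCC of mouse 6487.

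For HCC minus HCA, 25 of the 37 Chr2 bins were called lower, beside 11.4% of all bins, and 0 were called higher, beside 9.76% (limma; 30 had an unadjusted p under 0.05). These were 24 proximal bins and the bin of the boundary, with 0 of the 6 distal bins. The SE was 0.037 to 0.050 in the proximal and 0.057 to 0.080 in the distal bins. With the mouse as a replicate block 0 Chr2 bins were called by limma, although 30 had an unadjusted p under 0.05. In that fit the HCAs and HCCs, which come from different mice, are compared through their livers. The count was 10 without the HCA of mouse 6199 and 11 without that of mouse 2430.

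The livers allowed a comparison that involves no tumor, between 5 livers of mice with R246S and 4 livers of mice with floxed p53. The ratios of these livers were among those by which the boundary was chosen, so the tests are not independent of that choice. The floxed livers were all of females and scanned on days 1 and 2. Those with R246S were of both sexes and scanned on days 2 and 3. Genotype thus went largely with scan day and in part with sex, and the tests do not separate their effects. The proximal ratio was 0.050 ± 0.055 (SD, n = 5) with R246S and 0.0044 ± 0.013 (SD, n = 4) with floxed p53, a difference of 0.046, with 4 of 5 livers above the mean of the floxed group (exact two-sided permutation test, p = 0.111, adjusted p = 0.333 over 3 comparisons). The distal ratio was 0.071 ± 0.033 and 0.040 ± 0.033, a difference of 0.031, with 5 of 5 livers above that mean (exact permutation test, p = 0.222, adjusted p = 0.333). The step was 0.021 ± 0.025 and 0.036 ± 0.022, a difference of −0.015, with 1 of 5 livers above that mean (exact permutation test, p = 0.413, adjusted p = 0.413). None of the 3 differences passed the threshold, and 4 against 5 livers allow no p below 0.0159. Without the liver of mouse 6240 the proximal difference was 0.023, the distal difference 0.017 and the difference in step −0.0062.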

How the data were processed

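Each of 19 samples (Cy5) was hybridized with control DNA (Cy3) to its own Agilent CGH array. The authors deposited log10 ratios (red over green) of all spots, with the intensity of both channels and of the local background, extracted with Feature Extraction 10.5.1.1 with spatial detrending and linear dye normalization. Other deposited columns (probe names, positions on NCBI37 and flags) were used to select probes. The deposited table of all samples held the same log10 ratios (largest difference 5e-10). Spots flagged as outliers were dropped and saturated spots kept, spots of a probe were averaged, and the log2 of the ratios was taken and shifted so that the median autosomal probe was at 0 (−0.063 to 0.060 before the shift).

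Bins of 5 Mb with at least 20 probes were tested with limma 3.58.1 (R 4.3.3), and livers with exact permutation tests (scipy 1.17.1). Both steps were tested on simulated data. The number of arrays limits the precision, and p-values set a difference against the spread between these arrays. The main limma fit took a tumor and the liver of its mouse, and both HCCs of mouse 6240, as independent arrays. The probes, boundary and lists were chosen with earlier results of these data known. Named bins were the boundary bin, its neighbours and the 3 highest and 3 lowest bins of each tumor type, and named windows the 5 farthest from the Chr2 median. Gene lists fixed beside them (52 genes, all matched by name to chromosome 2 of GRCm38.p6) were not analysed for values. Tumors and livers are paired by mouse. The correlation of their deviations from the group means over autosomal bins was −0.052 to 0.28 (median 0.17, 6 of 10 pairs above 0.1). The alternatives covered background correction, loess, centring, probe filters, bin size, boundary, sex, scan day, pairing and each sample left out.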

Additional observations from a re-analysis of the deposited data

Results flagged for a closer look

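The liver of mouse 6240 was far from the other 8 livers for the mean ratio of Chr2, 0.14, and for its proximal ratio, 0.14, by the gap to the nearest liver relative to the range of the group (Dixon's test at the 95% level). Of 15 sets of group values examined in this way, 2 were flagged, and chance flags about 1 in 20. The proximal ratio relative to the own liver had opposite signs in the tumor types, above the liver in 4 of 4 HCAs and below it in 6 of 6 HCCs, with a difference of 0.20 between the means. The HCC nearest to its liver was that of mouse 6565, at −0.011. Before centring, the autosomal median was 0.051 in that tumor and 0.033 in its liver. That gap is larger than −0.011 in size, so the sign in this tumor, and the count of 6 of 6, depend on the centring. The difference between the means was not tested in this form, and 2 of the 6 HCCs share the liver of mouse 6240. With the mean of the other livers standing in for that liver, the HCC mean went from −0.094 to −0.051 and the difference to 0.16, with 6 of 6 HCCs still below.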

How the results depend on the processing

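The percentages here are of Chr2 bins called by limma, and the counts in brackets have an unadjusted p under 0.05. For HCA minus liver, 32.4% in the report became 0% with normexp (6 bins), with no background correction (8), with no centring (0), with the mouse as a replicate block (10) and in females only (4), 16.2% with the scan day as a block and 21.1% with 10 Mb bins, and with 1 sample left out it ran from 0% to 64.9%. For HCC minus liver, 2.70% became 0% with normexp (0), no centring (0), 10 Mb bins (5), the replicate block (4) and females only (5), and ran from 0% to 13.5% with 1 sample left out. For HCC minus HCA, 67.6% became 0% with normexp (13), no centring (8), the replicate block (30) and females only (26), and ran from 27.0% to 78.4%. Every Chr2 bin called for HCA minus liver was higher, and every one called in the other 2 comparisons lower, in all settings that called any. Centring also set the split over all 502 bins. With no centring the bins called higher and lower were 59 and 138 for HCA minus liver, 61 and 69 for HCC minus liver and 70 and 17 for HCC minus HCA, in place of 94 and 137, 23 and 101, and 49 and 57. Normexp, fitted on median signals, brought the X ratio of all 19 arrays nearer to 0. It took that of the HCC of mouse 6487 from −1.06 to −0.033 and its Chr2 step from 0.32 to 0.019, while the step of the HCC of mouse 6602 became 0.23. With no background correction these steps were 0.21 and 0.19, and under the other settings they were 0.26 to 0.38 and 0.28 to 0.32. HCC minus liver was 0.25 distally and 0.28 in step within scan day 2, which held 1 HCC, and −0.026 and 0.062 within scan day 3, which held 5. With 1 sample left out, the difference from the livers in step ran from 0.0052 to 0.036 in HCA and from 0.054 to 0.12 in HCC, and distally from −0.012 to 0.067 in HCC. Each of these fits kept at least 1 of the HCCs of mice 6487 and 6602. Against the own liver (replicate block) the mean step was higher by 0.0060 in HCA and 0.11 in HCC, or 0.090 in HCC with the mean of the other livers standing in for that of mouse 6240, a setting added after the data were seen. The 3 liver comparisons kept their direction and passed no threshold in any setting (lowest adjusted p 0.0714 over the settings, 0.171 with 1 liver left out).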
